A study of Homo sapiens with 24 samples.

Results

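The genes described here form a list of 37 genes of the hypoxia response and of glycolysis, from glucose uptake to lactate export, chosen by name and matched to the probes of the array through their accession. Of these 37 genes, 36 were matched to a probe (46 probes in all), out of 30997 genes with a named probe, and 34 gave a signal high enough to be tested in at least 1 comparison. *ALDOA* was not analysed here. The carbonic anhydrase *CA9* and the HIF hydroxylase *EGLN3* gave no signal well above background on the 24 arrays and entered no test.

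Gene expression was measured on 24 one-colour arrays in PLC/PRF/5 and SNU-449, established cell lines derived from human hepatocellular carcinoma (HCC), each standing for a single line. In each line, 3 independent cultures were left untreated (control), 3 received recombinant human TGFβ1 at 1 ng/mL, 3 received galunisertib (LY2157299) at 10 µM, an inhibitor of the kinase of the type I TGFβ receptor, and 3 received both. All treatments lasted 16 h after overnight serum starvation. The labels name no low-oxygen condition, so the genes were compared between lines and treatments and not between oxygen levels.

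When oxygen falls, prolyl hydroxylases of the EGLN family stop marking the HIF-α subunits (*HIF1A*, *EPAS1*) for destruction, and HIF then binds short DNA motifs near genes of glucose uptake, glycolysis, lactate export, angiogenesis and mitophagy. Because HIF-α is controlled largely at the level of the protein, its transcript alone does not report its activity. Many of the same genes are also set by oncogenes, nutrients and growth factors, and several glycolytic steps are carried by isozymes that differ between hepatocytes and other cells.

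Levels are log2 of the background-subtracted intensity over the 75th percentile of the array, so that 0 marks a probe as bright as that percentile, and values of different probes are not comparable with each other. Values below a floor of -4.13 were raised to it. Changes are log2 differences between group means with their standard error (SE), and a gene was called when limma's test gave an adjusted p below 0.05 over all genes tested. A stricter fold criterion, more than 2-fold at an unadjusted P below 0.001, is counted beside it. Between 41.6% and 49.6% of probes were well above background per array. Control PLC/PRF/5 cells had higher levels of 6 of 6 hepatocyte and 4 of 4 epithelial marker genes and SNU-449 cells of 4 of 5 mesenchymal ones, *FN1* being higher in PLC/PRF/5. The brightest leukocyte or endothelial marker probe, *CD14*, reached -1.99, and no probe of *PECAM1* or *KDR* was detected above background. Of the TGFβ targets *SMAD7*, *SKIL* and *PMEPA1*, 3 rose with TGFβ in PLC/PRF/5 and 2 in SNU-449, and 3 fell in each line when galunisertib was added to TGFβ. Under galunisertib, TGFβ raised 3 of 3 in SNU-449 and 0 of 3 in PLC/PRF/5. With TGFβ, 2 of 3 epithelial markers tested fell in SNU-449 and 2 of 6 hepatocyte markers fell in PLC/PRF/5, and their part in the results below was not tested. Over the genes of the list, the mean deviation from the group means was -0.09 to 0.09 per array. Where a gene had a second probe, it was tested in a fit over all probes and is given at least where its call differs.

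The HIF binding motif is ACGTG or GCGTG. It was searched on both strands in RefSeq promoter windows (GRCh38.p14) that run from 250 bases before to 50 bases after each annotated gene start. Windows were found for 33 of the 37 genes, 61 windows in all, of which 41 (67.2%) held at least 1 motif, against 17012 of all 35116 windows in the table (48.4%). Shown are windows of the 4 genes with a fold change above 2 in PLC/PRF/5 under TGFβ or on adding galunisertib to TGFβ and a TGFβ effect that differed with galunisertib, in each case the window with the most motifs. They are written 5′ to 3′ on the strand of the gene, with the motif or its reverse complement in capitals. CACGTG reads as ACGTG on both strands. A match describes these letters only and is not evidence of binding.
ADM, chr11:10304823-10305122, plus strand: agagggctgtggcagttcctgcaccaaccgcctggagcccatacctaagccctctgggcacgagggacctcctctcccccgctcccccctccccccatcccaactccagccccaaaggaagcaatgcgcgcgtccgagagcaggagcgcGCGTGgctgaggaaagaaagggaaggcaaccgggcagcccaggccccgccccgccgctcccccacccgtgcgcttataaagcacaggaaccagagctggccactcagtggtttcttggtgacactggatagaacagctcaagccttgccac
PFKFB3, chr10:6202682-6202981, plus strand: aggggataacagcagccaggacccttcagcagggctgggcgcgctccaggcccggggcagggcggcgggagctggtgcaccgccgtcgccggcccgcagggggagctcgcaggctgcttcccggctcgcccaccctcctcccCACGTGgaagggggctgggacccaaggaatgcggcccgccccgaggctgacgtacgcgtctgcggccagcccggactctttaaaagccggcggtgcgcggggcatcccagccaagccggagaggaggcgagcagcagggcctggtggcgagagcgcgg
HK2, chr2:74834920-74835219, plus strand: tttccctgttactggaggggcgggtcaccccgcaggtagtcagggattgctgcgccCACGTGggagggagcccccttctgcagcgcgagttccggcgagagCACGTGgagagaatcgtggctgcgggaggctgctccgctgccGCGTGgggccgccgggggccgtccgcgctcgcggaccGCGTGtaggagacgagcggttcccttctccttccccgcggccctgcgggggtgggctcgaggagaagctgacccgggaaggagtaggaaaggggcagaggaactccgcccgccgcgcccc
SLC2A1, chr1:42958819-42959118, minus strand: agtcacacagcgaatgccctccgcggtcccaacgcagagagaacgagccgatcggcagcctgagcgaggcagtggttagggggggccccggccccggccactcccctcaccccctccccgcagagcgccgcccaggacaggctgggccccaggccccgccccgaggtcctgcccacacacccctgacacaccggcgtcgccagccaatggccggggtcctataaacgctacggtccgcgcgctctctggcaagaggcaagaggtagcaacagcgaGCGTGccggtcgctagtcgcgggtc

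The control cells of the lines differed in most of these genes. Of the 34 tested, 29 were called, of which PLC/PRF/5 had the higher level in 19 and SNU-449 in 10, and 16 also passed the fold criterion. The background was wide, since 68.5% of all genes tested were called (33.9% higher in PLC/PRF/5, 34.6% lower) and 34.3% passed the fold criterion. The median difference, PLC/PRF/5 minus SNU-449, was 0.31 over the 34 genes and 0.06 over all genes. *SLC2A3*, *HK2*, *ALDOC* and *CA12* passed the signal filter through PLC/PRF/5 alone, so their direction here is not independent of that filter. With probes detected on all arrays, 28 genes were tested and 24 called, 15 higher in PLC/PRF/5 and 9 in SNU-449. Over all genes, 8969 were called in that setting, against 12257 in the main one. Control arrays of the lines did not overlap for 28 of the 34 genes, and non-overlap was not counted over all genes. In bulk cultures, fewer cells with a transcript and less of it per cell cannot be told apart.

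The most distant levels were those of the high-affinity glucose transporter *SLC2A3* (GLUT3) and of hexokinase 2 (*HK2*), which traps glucose as glucose 6-phosphate. *SLC2A3* read 3.59, 3.49 and 3.51 on the PLC/PRF/5 control arrays and was at the floor on all 12 SNU-449 arrays, at least 202-fold lower in SNU-449 control cells. *HK2* read 2.64, 2.81 and 2.86 in PLC/PRF/5 controls and was at the floor on the SNU-449 controls, at least 119-fold lower, and stayed too close to background on all 12 SNU-449 arrays, the highest of which read -3.54. Neither gene could therefore be followed within SNU-449. The widely expressed transporter *SLC2A1* (GLUT1) went the other way, with 1.86, 2.02 and 2.18 in PLC/PRF/5 and 2.92, 2.81 and 2.99 in SNU-449, a difference of -0.89 ± 0.24 (SE, adjusted p = 0.00266). Hexokinase 1 (*HK1*) was also higher in SNU-449 (-0.68 ± 0.10). Of the transporters and hexokinases in the list, SNU-449 cells thus gave a signal well above background for *SLC2A1* and *HK1* alone, and a second *HK2* probe was not detected in either line.

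The phosphofructokinase step was split by isoform. The platelet isoform *PFKP* and the muscle isoform *PFKM* were higher in SNU-449 by differences of -3.52 ± 0.09 and -2.65 ± 0.20, whereas the liver isoform *PFKL* was higher in PLC/PRF/5 by 0.88 ± 0.12. *PFKFB3*, whose product makes fructose 2,6-bisphosphate, the allosteric activator of phosphofructokinase, read 0.59, 0.56 and 0.86 in PLC/PRF/5 and 4.37, 4.78 and 4.73 in SNU-449. The groups were far apart, with a difference of -3.96 ± 0.14 (15.5-fold, adjusted p = 2.16e-15). A second *PFKFB3* probe differed less (-2.66 ± 0.17). Its paralogue *PFKFB4* was level between the lines (0.03).

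Levels of several genes of the later steps of the pathway also differed between the lines. The neuronal enolase *ENO2* was higher in SNU-449 (-4.29 ± 0.22), although it was well above background on only 2 of the 3 PLC/PRF/5 control arrays, while the ubiquitous *ENO1* was not called. Aldolase C (*ALDOC*) was higher in PLC/PRF/5 (1.95 ± 0.15) but well above background on 1 of the 3 SNU-449 control arrays and at the floor on the other 2, and its difference ranged from 0.72 to 2.43 over alternative settings. Phosphoglycerate kinase (*PGK1*) was higher in PLC/PRF/5 by 1.43 ± 0.12, and pyruvate kinase (*PKM*) in SNU-449 (-0.61 ± 0.13). *GAPDH* (0.18), *PGAM1* (0.25) and the collagen prolyl hydroxylase *P4HA1* (0.37) were called as higher in PLC/PRF/5 but turned to -0.19, -0.12 and -0.0033 when arrays were scaled to their median, which moved the median difference of all genes to -0.28. *GPI*, *TPI1*, *ENO1*, *PFKFB4* and *P4HA2* were not called, with differences from -0.20 to 0.03, although a second *P4HA2* probe was called as higher in PLC/PRF/5 (0.20).

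The 3 genes of the list that act on pyruvate and lactate were higher in PLC/PRF/5 on the probes used. Pyruvate dehydrogenase kinase 1 (*PDK1*), which inhibits pyruvate dehydrogenase, read 1.71, 1.76 and 1.78 in PLC/PRF/5 and 0.29, 0.39 and 0.48 in SNU-449. Its difference was 1.36 ± 0.08 without overlap. The lactate exporter *SLC16A3* (MCT4) differed by 0.92 ± 0.14 and lactate dehydrogenase A (*LDHA*) by 0.68 ± 0.11, although a second *LDHA* probe showed no difference (-0.05, adjusted p = 0.742). Carbonic anhydrase 12 (*CA12*) was dim, at the floor on all 3 SNU-449 controls and at -4.13, -3.47 and -3.36 in PLC/PRF/5, so that its called difference of 0.48 rested on overlapping groups.

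The HIF-α subunits had opposite profiles. *HIF1A*, the widely expressed subunit, read 1.15, 1.19 and 1.35 in PLC/PRF/5 and 3.12, 3.26 and 3.39 in SNU-449, a difference of -2.03 ± 0.11 (adjusted p = 3.90e-12). *EPAS1* (HIF-2α) read 4.97, 5.01 and 5.23 in PLC/PRF/5 and 3.42, 3.51 and 3.57 in SNU-449, a difference of 1.57 ± 0.09 (adjusted p = 2.12e-12). Each subunit was thus higher in the line where the other was lower, without overlap on either probe. *EGLN1*, the main HIF prolyl hydroxylase, was higher in PLC/PRF/5 by 0.52 ± 0.09.

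Other HIF targets did not follow a single direction. *NDRG1*, a stress-response gene, read 4.18, 4.46 and 4.64 in PLC/PRF/5 and 0.42, 0.89 and 0.90 in SNU-449, a difference of 3.69 ± 0.16 (12.9-fold). The angiogenic factor *VEGFA* (1.34 ± 0.11), the mitophagy receptor *BNIP3* (1.24 ± 0.12), the histone demethylase *KDM3A* (0.84 ± 0.18) and *ANKRD37* (0.77 ± 0.11) were also higher in PLC/PRF/5. In contrast, the related mitophagy receptor *BNIP3L* read 1.97, 2.14 and 2.37 in PLC/PRF/5 and 4.24, 4.32 and 4.60 in SNU-449 (-2.22 ± 0.13), and the vasodilator peptide adrenomedullin (*ADM*) was higher in SNU-449 as well (-1.80 ± 0.10). The plot of control-cell differences orders all 34 genes.

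**Figure D1:**
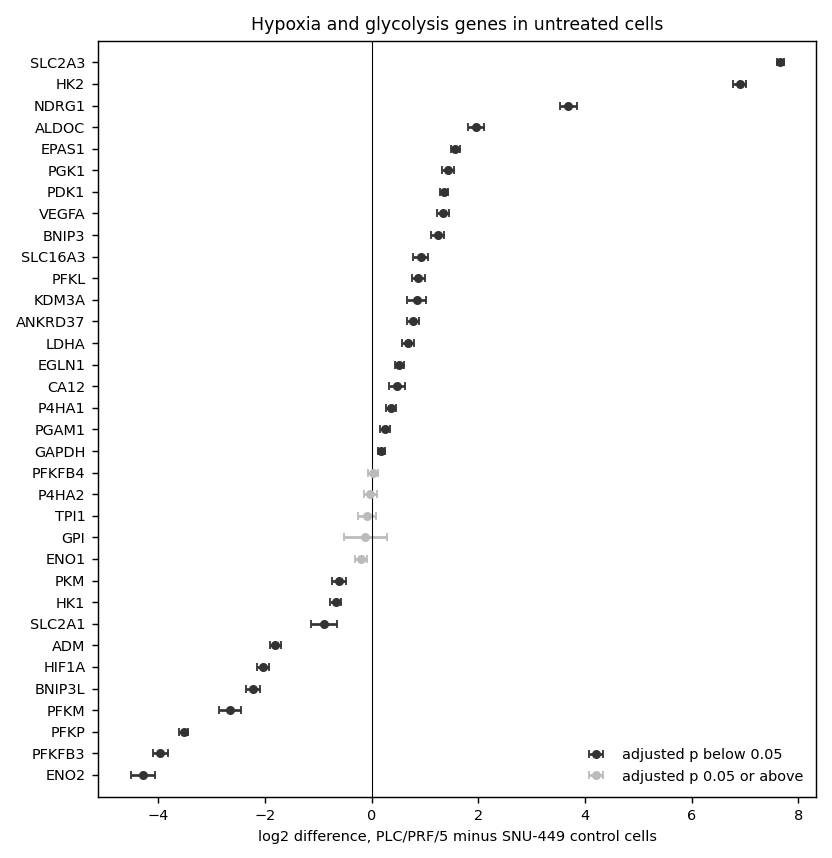
Log2 difference between control cells of the lines (horizontal axis, PLC/PRF/5 minus SNU-449) for the 34 tested genes. Points are differences of means of 3 arrays per line and bars are standard errors, with dark points for adjusted p below 0.05. *SLC2A3* and *HK2* stand at the right end and *ENO2*, *PFKFB3* and *PFKP* at the left, and *GAPDH*, *PGAM1* and *P4HA1* change side when arrays are scaled to their median.

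Genes of the same pathways outside the list were as divided. Among 10 other glycolytic isozymes and transporters tested, 7 were higher in PLC/PRF/5 and 2 in SNU-449. Those with a fold change above 2 were the hepatocyte transporter *SLC2A2* (GLUT2, 4.08 ± 0.17) and liver pyruvate kinase *PKLR* (1.63 ± 0.21) in PLC/PRF/5, and the heart-type lactate dehydrogenase *LDHB* (-5.50 ± 0.07) and *PFKFB2* (-2.39 ± 0.10) in SNU-449. Of 14 genes of pyruvate and lactate handling, 5 were higher in PLC/PRF/5, including the mitochondrial pyruvate carrier *MPC1* (2.33), the lactate transporter *SLC16A1* (2.09), *PDK3* (1.89) and *PDK4* (1.34), and 4 were higher in SNU-449, including *SLC16A7* (-3.73) and the phosphatase *PDP1* (-1.64). Of 9 HIF pathway regulators, 4 were higher in PLC/PRF/5 and 3 in SNU-449, with the HIF partner *ARNT2* (-4.50) and the coactivator *CREBBP* (-2.30) past a fold of 2. Of 21 further hypoxia-responsive genes, 10 were higher in PLC/PRF/5 and 5 in SNU-449. *DDIT4*, an inhibitor of mTOR signalling, differed by 5.32 ± 0.22, and *PLOD1*, *INSIG2*, *HILPDA*, *MXI1*, *AK4* and *TMEM45A* by 1.35 to 2.23, whereas *PLOD2*, *PPP1R3C* and *ZNF395* were higher in SNU-449 (-1.17 to -1.12).

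TGFβ changed 9 of the 34 genes in PLC/PRF/5, raising 4 and lowering 5, against 13.6% of all genes tested (6.35% higher, 7.22% lower). The fold criterion was passed by 2 of the 34 and by 1.11% of all genes. *PFKFB3*, *ADM*, *NDRG1* and *SLC2A3* rose, and *HK2*, *SLC2A1*, *ALDOC*, *PFKM* and *PDK1* fell, so the glucose transporters split, and 2 of the 4 secreted or stress genes were called. The median change was -0.10 over the 34 genes and -0.03 over all genes. On every slide, arrays without TGFβ lay in row 1 and those with TGFβ in row 2, so slide row and TGFβ cannot be told apart. Comparisons of galunisertib with control and of both treatments with TGFβ lie within a row but between columns. Each group kept its column on every slide, so slide column cannot be told apart from galunisertib or from the line.

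*PFKFB3* rose from 0.59, 0.56 and 0.86 in control to 2.55, 2.58 and 2.53 under TGFβ, a change of 1.88 ± 0.13 (3.68-fold, adjusted p = 1.28e-05). All TGFβ arrays lay well above all controls, and a second *PFKFB3* probe rose by 1.26 ± 0.19. *ADM* rose from 4.81, 4.98 and 5.26 to 6.01, 6.13 and 6.18, a change of 1.09 ± 0.11 (adjusted p = 0.000214). *NDRG1* rose by 0.75 ± 0.15 from 4.18, 4.46 and 4.64 to 5.33, 4.95 and 5.23, and *SLC2A3* by 0.39 ± 0.08 (second probe 0.42, not called, adjusted p = 0.0538). None of these 4 genes had overlapping groups. Non-overlap did not set them apart, since it held for 24 of the 34 genes, called or not. It was not counted over all genes.

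*HK2* fell from 2.64, 2.81 and 2.86 to 1.66, 1.90 and 1.90, a change of -0.95 ± 0.10 (adjusted p = 0.000209). *SLC2A1* fell from 1.86, 2.02 and 2.18 to 1.46, 1.47 and 1.41 (-0.58 ± 0.11, adjusted p = 0.00765). Both were lower on each TGFβ array than on any control. The other hexokinase, *HK1*, was higher on each TGFβ array than on any control but was not called (0.90, 0.89 and 0.91 against 0.74, 0.74 and 0.81). *ALDOC* (-0.78 ± 0.10), *PFKM* (-0.55 ± 0.14) and *PDK1* (-0.27 ± 0.08) also fell, the call for *PDK1* being lost with the replicate number as a block (adjusted p = 0.0525). The other 25 genes were not called, with changes from -0.43 to 0.57, among them *HIF1A* (0.04, 95% interval -0.23 to 0.30) and *EPAS1* (-0.09, 95% interval -0.31 to 0.13). A second *LDHA* probe was called as lower (-0.40, adjusted p = 0.0416) where the probe used was not (-0.26).

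*VEGFA* was not called on the brighter of its probes (-0.12 ± 0.08), while its second probe was called as higher (0.29 ± 0.07, adjusted p = 0.0263), so its direction under TGFβ in PLC/PRF/5 was not settled. Of 20 further hypoxia-responsive genes, 2 rose (*ANGPTL4*, *PLOD2*) and 6 fell, the largest fall being that of the secreted glycoprotein *STC2* (-1.40 ± 0.13, adjusted p = 9.79e-05). Of 13 genes of pyruvate and lactate handling, 0 rose and 2 fell, and of 9 other isozymes and transporters 1 rose and 0 fell. Scaling to the array median left 4 calls, 2 in each direction, and no scaling left 3 that rose and 0 that fell. Without replicate 2 or without replicate 3 the count was 4. Over all genes the count fell from 2262 to 484 with median scaling and 505 without scaling. It was 465 and 528 without replicate 2 and 3.

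**Figure D2:**
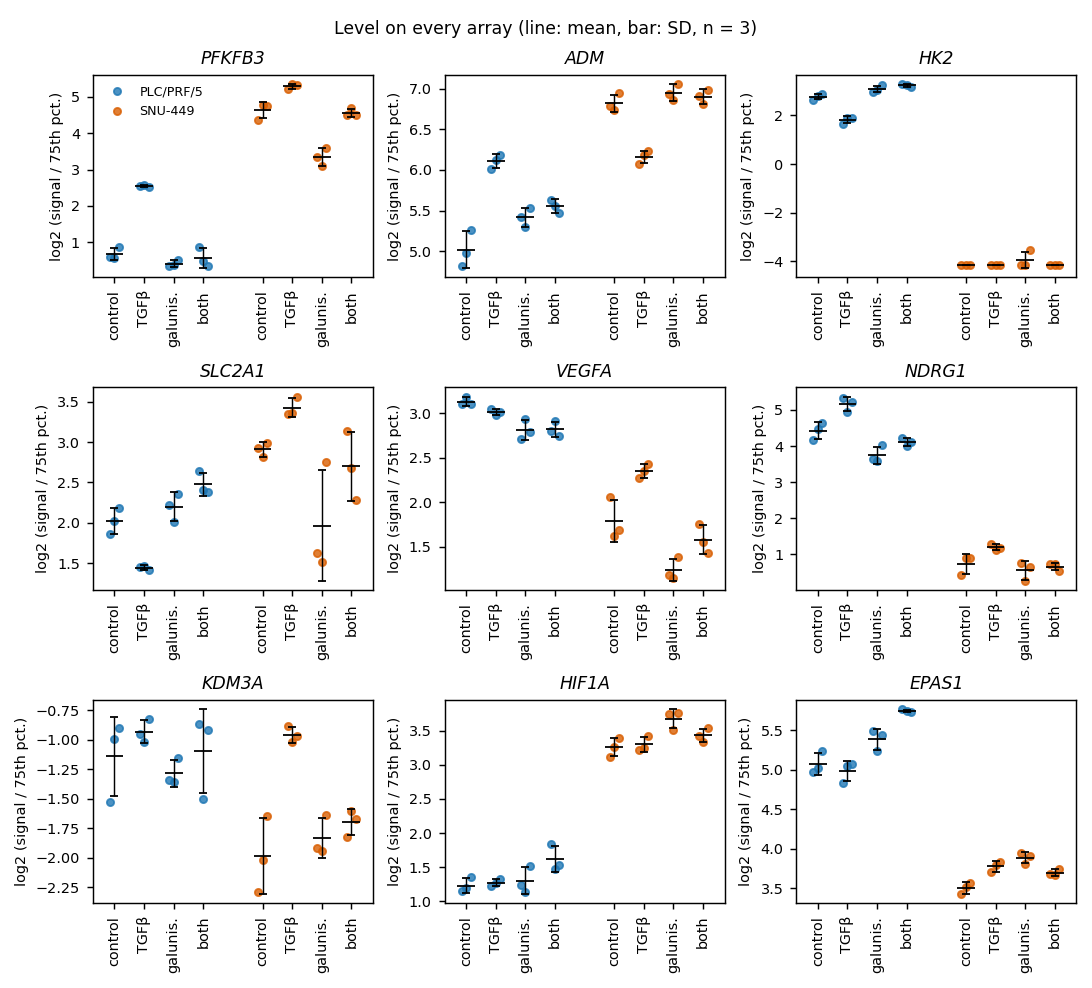
Level on every array of 9 genes (vertical axes, log2 of intensity over the 75th percentile of the array, a separate axis per gene) for the 4 treatments of PLC/PRF/5 (blue) and SNU-449 (orange). Points are arrays, horizontal lines are means and bars are SD of 3 arrays, and *HK2* in SNU-449 is at or near the floor of -4.13. Among the 4 treatments of PLC/PRF/5, *PFKFB3* and *ADM* stand highest under TGFβ, where *HK2* and *SLC2A1* stand lowest.

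When galunisertib was added to TGFβ in PLC/PRF/5, 19 of the 34 genes were called, 15 higher and 4 lower than with TGFβ alone. Many genes moved, since 39.1% of all genes tested were called (25.9% higher, 13.2% lower), while 4 of the 34 and 3.12% of all genes passed the fold criterion. The median change was 0.23 over the 34 genes and 0.06 over all. Groups did not overlap for 25 of the 34 genes, called or not, and non-overlap was not counted over all genes. This comparison shares its TGFβ arrays with the preceding one, so each is given by its own values.

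The glucose transporters split again, *SLC2A1* rising and *SLC2A3* falling. *HK2* read 3.27, 3.27 and 3.15 with both treatments against 1.66, 1.90 and 1.90 with TGFβ alone, a change of 1.41 ± 0.10 (adjusted p = 5.12e-06). *SLC2A1* read 2.64, 2.41 and 2.38 against 1.46, 1.47 and 1.41, a change of 1.03 ± 0.11 (adjusted p = 7.98e-05). Both were higher on every array with both treatments than on any with TGFβ alone. Of the 14 glycolytic enzymes tested, 6 rose, 0 fell and the others were not called. Beside *HK2*, those that rose were *PFKM* (0.95 ± 0.14), *PGK1* (0.56 ± 0.13), *PGAM1* (0.37 ± 0.11, but 0.07 on a second probe, not called), *ALDOC* (0.35 ± 0.10) and *PFKP* (0.32 ± 0.10). The pyruvate and lactate genes *SLC16A3* (0.58 ± 0.14), *LDHA* (0.48 ± 0.08) and *PDK1* (0.47 ± 0.08) rose, as did the dim *CA12* (0.79 ± 0.18).

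All 3 measured genes of oxygen sensing rose, *EPAS1* by 0.76 ± 0.10, *EGLN1* by 0.41 ± 0.08 and *HIF1A* by 0.35 ± 0.12 (adjusted p = 0.0404). The *HIF1A* call was kept in 6 of 14 alternative settings, and its second probe was not called (0.27, adjusted p = 0.161). *EPAS1* read 5.76, 5.74 and 5.72 with both treatments against 4.83, 5.04 and 5.07 with TGFβ alone, without overlap. *ANKRD37* rose by 0.82 ± 0.10.

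The 4 genes that fell were *PFKFB3*, *NDRG1*, *ADM* and *SLC2A3*. *PFKFB3* went from 2.55, 2.58 and 2.53 to 0.87, 0.48 and 0.34, a change of -1.99 ± 0.13 (adjusted p = 3.49e-06). *NDRG1* went from 5.33, 4.95 and 5.23 to 4.22, 3.99 and 4.11 (-1.06 ± 0.15, adjusted p = 0.000429). *ADM* (-0.55 ± 0.11) and *SLC2A3* (-0.48 ± 0.08) fell less. Second probes of *BNIP3L* (-0.51, adjusted p = 0.000578) and *VEGFA* (-0.23, adjusted p = 0.0311) were called as lower where the probes used were not (-0.15 and -0.19). With the 75th percentile taken over detected probes alone, the calls were 11 higher and 6 lower, and with no scaling 3 higher and 2 lower. Over all genes, 6200 and 1016 were called in these settings, against 6517 in the main one.

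Related genes moved in both directions when galunisertib was added to TGFβ in PLC/PRF/5. Of 20 further hypoxia-responsive genes, 10 rose and 1 (*ANGPTL4*) fell, with *STC2* among those that rose (0.54 ± 0.13). Of 13 genes of pyruvate and lactate handling, 5 rose, the largest being the pyruvate dehydrogenase subunit *DLAT* (1.02 ± 0.10), and 2 fell. Of 9 other isozymes and transporters, 2 rose and 3 fell, the muscle enolase *ENO3* by 1.09 on the log2 scale. Of 8 HIF pathway regulators, 2 rose and 1 fell.

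Galunisertib alone changed fewer of these genes in PLC/PRF/5, with 4 of 34 called, 2 in each direction, against 5.39% of all genes (3.65% higher, 1.74% lower). *PFKP* rose from 3.38, 3.24 and 3.29 to 4.10, 3.94 and 3.85 (0.66 ± 0.10, adjusted p = 0.00608), and *SLC16A3* rose by 0.60 ± 0.14. *NDRG1* fell from 4.18, 4.46 and 4.64 to 3.64, 3.58 and 4.02 (-0.68 ± 0.15), and *VEGFA* by 0.32 on the log2 scale (second probe -0.07, not called, adjusted p = 0.622). No gene of the list passed the fold criterion, which 0.348% of all genes passed. The 4 calls were lost under scaling to the array median, without scaling and whichever replicate number was left out. Calls over all genes fell as well, from 898 to 92 with median scaling and 36 without scaling. Without replicate 1, 2 or 3 they fell to 51, 55 and 2. *ENO2* moved by 0.87 ± 0.23 and was not called (adjusted p = 0.0552).

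Under galunisertib, TGFβ left 1 call among the 34 genes in PLC/PRF/5, *EPAS1* (0.36 ± 0.10, adjusted p = 0.0498), against 8.51% of all genes, and 0 passed the fold criterion against 0.288%. That call held in 2 of 14 alternative settings. The TGFβ effect itself differed with galunisertib for 6 genes, against 8.86% of all genes, and 2 of these passed the fold criterion against 1.2%. With galunisertib present it was smaller by 1.74 for *PFKFB3* (-1.74 ± 0.19, adjusted p = 0.000655), by 0.95 for *ADM* (-0.95 ± 0.16) and by 0.48 for *SLC2A3* (-0.48 ± 0.12), and it was more positive for *HK2* (1.09 ± 0.14, adjusted p = 0.00176), *SLC2A1* (0.85 ± 0.16) and *ANKRD37* (0.54 ± 0.15). For *NDRG1* the difference was -0.39 ± 0.22 and was not called (95% interval -0.87 to 0.09). The *SLC2A3* call was lost with the replicate number as a block (adjusted p = 0.0532) and its second probe was not called (-0.59, adjusted p = 0.0683). Without replicate 1 the count was 3, of which 2 were among these 6, and without replicate 2 or 3 it was 0. Over all genes the count fell from 1477 to 190, 77 and 22 without replicate 1, 2 and 3.

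**Figure D3:**
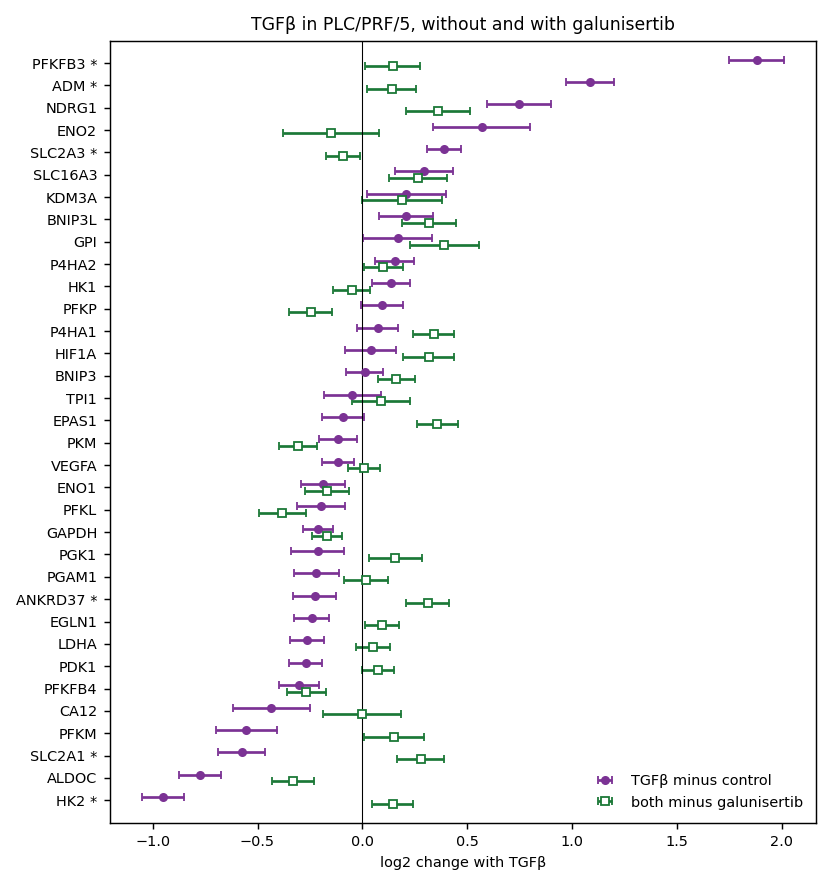
Log2 change with TGFβ in PLC/PRF/5 (horizontal axis) for the 34 tested genes, without galunisertib (filled circles, TGFβ minus control) and with it (open squares, both minus galunisertib). Bars are standard errors of differences of means of 3 arrays, and an asterisk marks the 6 genes whose TGFβ effect differed with galunisertib. For *PFKFB3* the change was 1.88 without and 0.15 with galunisertib, and for *HK2* it was -0.95 and 0.14.

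In SNU-449, 30 of the 37 genes could be tested, since *SLC2A3*, *HK2*, *ALDOC* and *CA12* were too dim there beside *CA9* and *EGLN3*. TGFβ changed 5 of the 30, raising 4 and lowering 1, against 10.3% of all genes (5.64% higher, 4.7% lower), and 1 of the 30 passed the fold criterion against 2.31%. The median change was 0.11 over the 30 genes and 0.02 over all genes. The called genes lay outside the glycolytic enzymes, of which 12 were tested.

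*KDM3A*, a demethylase of histone H3 lysine 9, rose from -2.29, -2.02 and -1.64 to -0.88, -1.02 and -0.97, a change of 1.03 ± 0.15 (adjusted p = 0.00200). *PFKFB3* rose from 4.37, 4.78 and 4.73 to 5.22, 5.34 and 5.31 (0.66 ± 0.14, adjusted p = 0.0154), while its second probe was not called (0.39, adjusted p = 0.123). *VEGFA* rose from 2.07, 1.62 and 1.69 to 2.28, 2.35 and 2.43 (0.56 ± 0.13), and its more variable second probe was not called (0.99 ± 0.58). These 3 genes had no overlap between groups, which held for 16 of the 30 genes, called or not, and was not counted over all genes. The collagen prolyl hydroxylase *P4HA2* rose by 0.54 ± 0.14. In contrast, *ADM* fell from 6.78, 6.74 and 6.94 to 6.08, 6.18 and 6.23, a change of -0.66 ± 0.09 (adjusted p = 0.00133). The 25 others were not called, with changes from -0.44 to 0.52, including *HIF1A* (0.04, 95% interval -0.19 to 0.28) and *EPAS1* (0.27, adjusted p = 0.0517).

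Outside the list, the HIF antagonist *CITED2* fell by 1.07 on the log2 scale in SNU-449 under TGFβ and *SLC2A2* by 1.32, whereas the lipase inhibitor *ANGPTL4* rose by 1.38 ± 0.19. In the lists they came from, 2 of 9 HIF regulators rose and 1 fell, 0 of 8 isozymes and transporters rose and 3 fell, and 4 of 21 hypoxia-responsive genes rose and 2 fell. Of the 5 calls in the list itself, 1 was left with arrays scaled to their median or without replicate 2. The count over all genes fell from 1664 to 698 and 583 in these settings.

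Galunisertib alone changed 4 of the 30 genes in SNU-449, 2 in each direction, against 7.28% of all genes (5.23% higher, 2.04% lower). *PFKFB3* fell from 4.37, 4.78 and 4.73 to 3.34, 3.09 and 3.60 (-1.29 ± 0.14, adjusted p = 0.000913), the only one past the fold criterion, which 1.13% of all genes passed. A second *PFKFB3* probe fell by 1.18 on the log2 scale. *VEGFA* fell from 2.07, 1.62 and 1.69 to 1.18, 1.15 and 1.38 (-0.55 ± 0.13, adjusted p = 0.0345), with its second probe not called (-0.80 ± 0.58). Both HIF-α transcripts rose, *HIF1A* from 3.12, 3.26 and 3.39 to 3.75, 3.52 and 3.76 (0.42 ± 0.11, adjusted p = 0.0444, second probe 0.46, not called) and *EPAS1* from 3.42, 3.51 and 3.57 to 3.94, 3.81 and 3.90 (0.38 ± 0.08, adjusted p = 0.0184). Of 14 alternative settings, the *HIF1A* call was kept in 5 and the *EPAS1* call in 8. The median change was 0.07 over the 30 genes and 0.09 over all genes. Outside the list, *DDIT4* rose by 1.40 ± 0.27. Of these 4 calls, 1 was left with arrays scaled to their median and 1 without each of the replicate numbers in turn. The count over all genes fell from 1171 to 233 with that scaling. It was 201, 263 and 148 without replicate 1, 2 and 3.

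The largest changes among the genes not called under galunisertib in SNU-449 came with wide spread. *GPI*, the isomerase that follows hexokinase, read 3.14, 5.36 and 3.75 on the galunisertib arrays against 5.80, 5.39 and 5.65 in control (-1.53 ± 0.53, adjusted p = 0.115). *SLC2A1* read 1.62, 1.52 and 2.76 against 2.92, 2.81 and 2.99 (-0.94 ± 0.30, adjusted p = 0.0892). In each gene a galunisertib array lay close to the controls.

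When galunisertib was added to TGFβ in SNU-449, 9 of the 30 genes were called, 2 higher and 7 lower, against 16.9% of all genes (9.58% higher, 7.33% lower), and 0 of the 30 passed the fold criterion against 3.8%. The median change was -0.12 over the 30 genes and 0.01 over all. As in PLC/PRF/5, this comparison shares its TGFβ arrays with that of TGFβ against control. Opposite signs in these comparisons are therefore not independent results. *VEGFA* fell from 2.28, 2.35 and 2.43 to 1.76, 1.55 and 1.44 (-0.77 ± 0.13, adjusted p = 0.00283). *KDM3A* fell from -0.88, -1.02 and -0.97 to -1.82, -1.60 and -1.67 (-0.74 ± 0.15), and *PFKFB3* from 5.22, 5.34 and 5.31 to 4.49, 4.68 and 4.50 (-0.74 ± 0.14). All arrays with both treatments were below all arrays with TGFβ alone for these 3 genes. Groups did not overlap for 12 of the 30, called or not, and non-overlap was not counted over all genes. *NDRG1* (-0.54), *P4HA2* (-0.47), *ANKRD37* (-0.44) and *PFKFB4* (-0.35) also fell, and *PDK1* rose by 0.33. With the replicate number as a block, the calls for *NDRG1* (adjusted p = 0.0728) and *PDK1* (adjusted p = 0.0502) were lost. Scaling to the array median left 3 calls, and leaving out replicate 1, 2 or 3 left 4, 2 and 2. Over all genes, calls fell from 2720 to 1314 with that scaling and to 1888, 1102 and 1039 without those replicates.

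*ADM* rose in the same comparison, from 6.08, 6.18 and 6.23 to 6.91, 6.81 and 6.99 (0.74 ± 0.09, adjusted p = 0.000374). It was also the only gene of the 30 whose TGFβ effect differed with galunisertib in SNU-449 (0.61 ± 0.13, adjusted p = 0.0389), against 2.55% of all genes, and passed no fold criterion, which 1.35% of all genes passed. That call was lost whichever replicate number was left out. Calls over all genes fell there from 411 to 101, 53 and 43 without replicate 1, 2 and 3. Outside the list, *CITED2* rose by 1.08, *SLC2A2* rose by 1.77 and *ANGPTL4* fell by 1.07 on the log2 scale.

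*PFKFB3* was the only gene of the 30 that TGFβ changed under galunisertib in SNU-449, against 1.86% of all genes, and it passed the fold criterion with 0.677% of them. It read 4.49, 4.68 and 4.50 with both treatments and 3.34, 3.09 and 3.60 with galunisertib alone (1.21 ± 0.14, adjusted p = 0.00353). Leaving out any replicate number lost this call, while calls over all genes fell from 299 to 73, 31 and 72. In control cells the TGFβ change of *PFKFB3* was 0.66. The difference between its changes without and with galunisertib was not called (0.55 ± 0.20, 95% interval 0.10 to 1.00, adjusted p = 0.206).

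**Figure D4:**
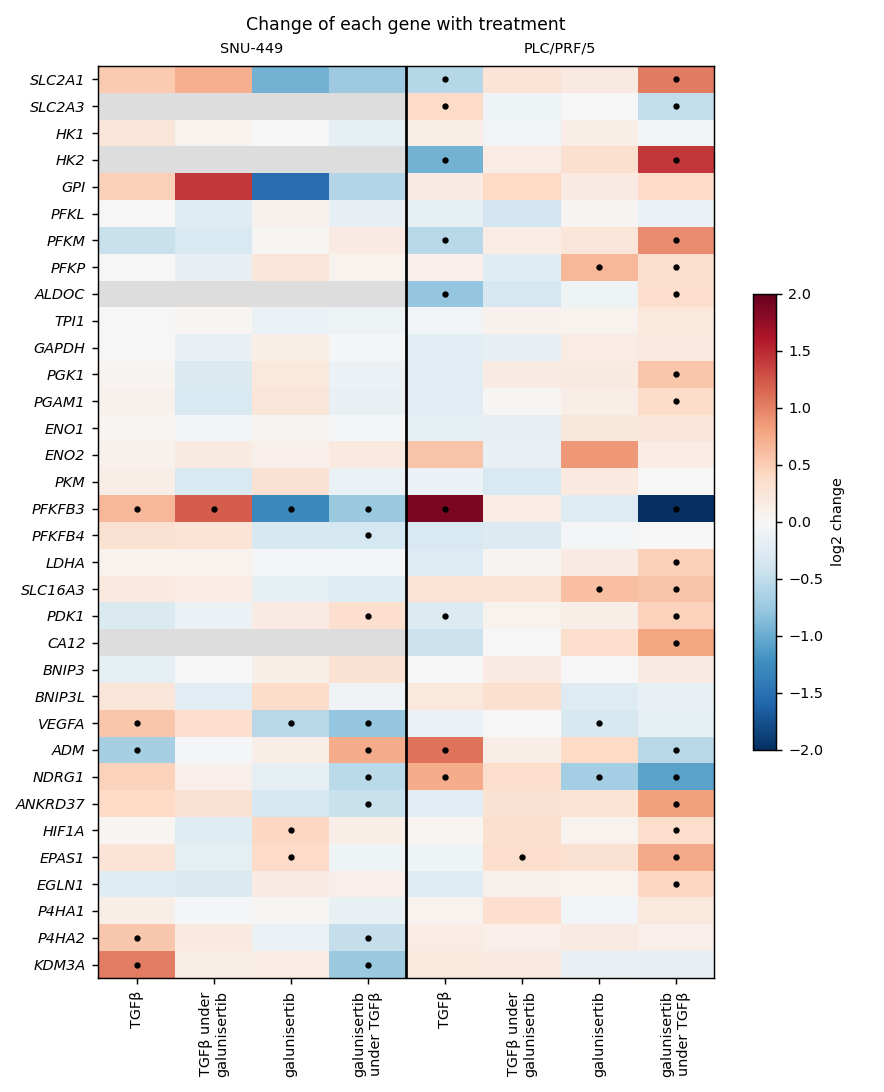
Log2 change of each of the 34 genes (rows, ordered by role) in the 4 comparisons within SNU-449 and the 4 within PLC/PRF/5 (columns), as differences of means of 3 arrays, red for higher and blue for lower. A dot marks an adjusted p below 0.05 and grey marks genes not tested in SNU-449. Dots are densest for galunisertib under TGFβ in PLC/PRF/5, 19 of 34.

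The effect of TGFβ was set against the line in a fit over all 24 arrays. It differed for 7 of the 34 genes, against 8.63% of all genes, and 2 passed the fold criterion against 2.29%. *ADM* moved in opposite directions, 1.09 in PLC/PRF/5 and -0.66 in SNU-449, a difference, SNU-449 minus PLC/PRF/5, of -1.75 ± 0.14 (adjusted p = 1.34e-07). *PFKFB3* rose in both lines and rose less in SNU-449, where it started 3.96 higher on the probe used (-1.22 ± 0.20, adjusted p = 0.000386). *VEGFA* differed by 0.68 ± 0.15 (0.70 on its second probe, not called, adjusted p = 0.595), *ANKRD37* by 0.62 ± 0.16 and *PFKFB4* by 0.60 ± 0.13, each more positive in SNU-449. The calls for *HK2* (0.95) and *SLC2A3* (-0.39, second probe -0.42, not called) set a change in PLC/PRF/5 against floor values in SNU-449, where neither gene was measured. *NDRG1* rose in PLC/PRF/5 and was not called in SNU-449 (0.47, adjusted p = 0.0955), and the difference was not called (-0.28, 95% interval -0.75 to 0.19). For *KDM3A* it missed the threshold (0.82 ± 0.25, adjusted p = 0.0515), and for *P4HA2* a second probe was called (0.53 ± 0.11) where the probe used was not (0.38, adjusted p = 0.212). Without replicate 2 the count was 2, and over all genes it was 605, against 1543 with all arrays.

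**Figure D5:**
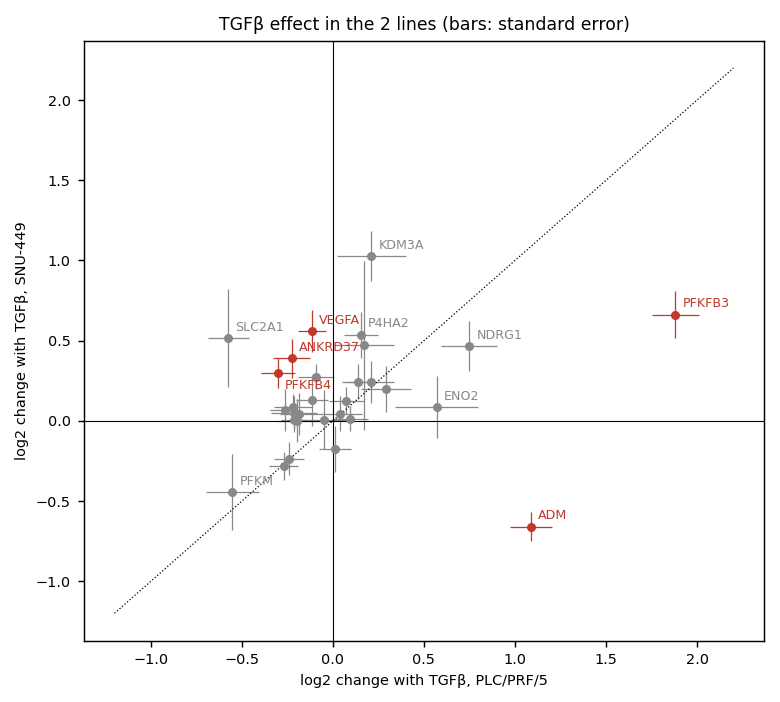
Log2 change with TGFβ in PLC/PRF/5 (horizontal axis) and SNU-449 (vertical axis) for the 30 genes tested in both lines. Points are differences of means of 3 arrays, bars are standard errors, the dotted line marks equal change and red marks genes whose change differed between the lines. *ADM* lies at 1.09 and -0.66, and *PFKFB3* at 1.88 and 0.66.

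The effect of galunisertib alone differed between the lines for 3 of the 34 genes, against 5.88% of all genes, and 1 passed the fold criterion against 1.54%. *PFKFB3* fell by 1.29 in SNU-449 and moved by -0.25 in PLC/PRF/5, where it was not called, a difference of -1.03 ± 0.20 (adjusted p = 0.00333), while its second probe was not called (-0.80, adjusted p = 0.0643). *SLC16A3* rose by 0.60 in PLC/PRF/5 against -0.18 in SNU-449 (-0.78 ± 0.20, adjusted p = 0.0268). *ANKRD37* moved by 0.28 in PLC/PRF/5 and -0.35 in SNU-449, neither called alone, and the difference was called (-0.63 ± 0.16, adjusted p = 0.0217). A second *PFKP* probe was called (-0.79 ± 0.18) where the probe used was not (-0.42). The count was 1 without replicate 1 or 2 and 2 without replicate 3. Of the 3 genes called with all arrays, 1, 0 and 1 were kept without replicate 1, 2 and 3. Calls over all genes fell from 1052 to 588, 424 and 318.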

How the data were processed

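RNA from each culture was hybridised to a one-colour Agilent array. The scanner files deposited by the authors hold intensity values (Agilent Feature Extraction 10.7.3.1), background-subtracted and detrended within the array but not scaled between arrays. The authors also deposited normalized log2 values, centred per probe, which served as an alternative only (r = 0.999 with the values used here over 19267 probes). Control and outlier spots were left out, intensities were divided by the 75th percentile of the array (145 to 262 units), floored at 5.70% of it, and log2-transformed. No plan named this floor. A probe was tested if some group had it well above background on all its arrays, and the probe with the highest mean stood for a gene. Of 58201 probes, 31104 were named from RefSeq accessions, 10719 from LNCipedia and 16378 were unnamed. Comparisons used limma 3.58.1 in R 4.3.3 with Benjamini-Hochberg adjustment, within a line over 12 arrays and across lines over 24. The methods name a t-test with shared variance, and limma also shares the spread between genes. The steps were tested on simulated data.

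The replicate number is also the slide (3 slides of 8 arrays). Same-numbered arrays deviated together, with every pair above 0.1, for both treatments against TGFβ in SNU-449 (0.10 to 0.27) and for TGFβ against control in PLC/PRF/5 (0.17 to 0.30) and SNU-449 (0.13 to 0.23) but not otherwise. Alternatives covered scaling, background correction (normexp on median signals, because the files hold no mean signal), the authors' values, floor, filter and choice of probe. They also covered a replicate block, a per-gene t-test without shared variance and leaving out each replicate. The number of arrays limits the precision. Named genes are those called in a comparison, *HIF1A* and *EPAS1*, and related genes with a fold change above 2. The genes and lists were chosen with earlier results of these data known.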

Additional observations from a re-analysis of the deposited data

Results flagged for a closer look

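The effect of TGFβ differed between the lines for 7 genes by the test of the difference itself, given as the log2 change in SNU-449 minus that in PLC/PRF/5. These were *ADM* (-1.75, adjusted p = 1.34e-07), *PFKFB3* (-1.22, adjusted p = 0.000386), *HK2* (0.95, adjusted p = 0.00106), *VEGFA* (0.68, adjusted p = 0.00660), *ANKRD37* (0.62, adjusted p = 0.0170), *PFKFB4* (0.60, adjusted p = 0.00468) and *SLC2A3* (-0.39, adjusted p = 0.00990). For *HK2* and *SLC2A3* the SNU-449 arrays gave no level well above background. The effect of galunisertib alone differed for 3 genes, *PFKFB3* (-1.03, adjusted p = 0.00333), *SLC16A3* (-0.78, adjusted p = 0.0268) and *ANKRD37* (-0.63, adjusted p = 0.0217). *ADM* and *PFKFB3* under TGFβ were called in all 13 alternative settings that could be fitted.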

How the results depend on the processing

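Counts are of genes of the list called in the setting named, which need not be the genes called in the main setting. The cause of a changed count was not tested. Under scaling to the array median, or without any one replicate, calls over all genes fell in every comparison. For galunisertib that scaling took them from 1171 to 233 in SNU-449 and from 898 to 92 in PLC/PRF/5. Of 1347 values for single genes under alternative settings, 1029 kept direction and call, 315 kept direction and lost the call, and 3 reversed, all in control cells with arrays scaled to their median (*GAPDH* -0.19, *PGAM1* -0.12, *P4HA1* -0.0033). That scaling left 1, 1, 3 and 0 calls in SNU-449 for TGFβ, galunisertib, galunisertib added to TGFβ and the interaction, and 4, 0, 0 and 2 in PLC/PRF/5 for TGFβ, galunisertib, TGFβ under galunisertib and the interaction. The difference between lines kept 2 for TGFβ and 0 for galunisertib. Of the control-cell calls, PLC/PRF/5 then had the higher level in 10 and SNU-449 in 11. Without scaling, PLC/PRF/5 had 3 calls for TGFβ, 0 for galunisertib, 5 for galunisertib added to TGFβ, 0 for TGFβ under galunisertib and 1 for the interaction, SNU-449 had 2 for galunisertib and 0 for the interaction, and the lines differed in 2 for TGFβ and 0 for galunisertib.

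For TGFβ under galunisertib in PLC/PRF/5, the count was 0 with the authors' values, a lower floor, no filter, the mean of probes and the t-test, 3 with probes detected on all arrays, and 4 with normexp or the percentile over detected probes, of which the latter 4 were all lower. The SNU-449 interaction gave 0 with the authors' values and 2 with normexp or no filter. The galunisertib difference between lines gave 1 with the authors' values and 5 with normexp, the mean of probes or the percentile over detected probes. Galunisertib in SNU-449 gave 2 with the mean of probes, and in PLC/PRF/5 2 with no filter. A per-gene t-test, without the shared variance that the methods name and with its p adjusted by Benjamini-Hochberg, gave 0 for galunisertib in each line. It gave 0 for TGFβ under galunisertib in SNU-449 and 5 for both treatments against TGFβ in that line. Over all genes the t-test called 88 for galunisertib in SNU-449 and 157 in PLC/PRF/5. For TGFβ under galunisertib it called 0 of all genes in each line. At the fold criterion, the t-test passed 16 genes between the lines, 1 with TGFβ and 3 with both treatments against TGFβ in PLC/PRF/5, and 0 in the other comparisons of 2 groups.

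The replicate block left 5, 7 and 8 calls where numbers paired the samples, namely TGFβ and both treatments against TGFβ in SNU-449 and TGFβ in PLC/PRF/5, and changed no other call in these beyond those given. Elsewhere it left 2 for galunisertib in PLC/PRF/5, and *VEGFA* (adjusted p = 0.0514) was lost for galunisertib in SNU-449, *EPAS1* (adjusted p = 0.0630) for TGFβ under galunisertib in PLC/PRF/5 and *SLC2A3* (adjusted p = 0.0532) for the PLC/PRF/5 interaction. Leaving out a replicate gave 26 to 27 calls between control cells, 1 to 3, 1 to 2, 2 to 4, 0 to 1 and 0 in SNU-449 for TGFβ, galunisertib, galunisertib added to TGFβ, TGFβ under galunisertib and the interaction, and 4 to 7, 0, 13 to 14, 0 and 0 to 3 in PLC/PRF/5, with 2 to 5 and 1 to 2 for the differences between lines in TGFβ and galunisertib. The lowest count for TGFβ came without replicate 2 in SNU-449 (1) and without replicate 2 or 3 in PLC/PRF/5 (4).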
